A study of Mus musculus with 8 samples.

Results

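Secretory granule and prohormone processing genes were followed in the hypothalamus of mice labelled as knockouts of Bgn, the gene of biglycan, a small proteoglycan of the extracellular matrix. The set was fixed by name as Chga, Chgb, Scg2, Scg3, Scg5, Vgf, Pcsk1, Pcsk2, Cpe and Pam, and every array probe that the platform annotation assigns to one of these symbols was used. Of the 10 genes, 8 had a probe, out of 16593 named genes on the array. The 8 genes were read by 10 of the 25697 probes: Chga by 3 and the others by 1 each. No probe listed in the annotation used here carries the symbol Cpe or Pcsk2, so the main exopeptidase and a principal convertase of the pathway were not analysed here. RNA came from the dissected, frozen hypothalamus of male mice at 13 weeks of age on the C57BL/6 background, 4 labelled Bgn_KO and 4 labelled WT, all fed the same rodent diet freely and kept on the same light cycle, with 1 Illumina array per sample. The labels name neither the allele of the knockout nor the litters of the mice. In bulk tissue, fewer cells of a type and less RNA per cell cannot be told apart.

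Neurons and endocrine cells package peptide hormones into dense-core granules. Granins (chromogranins and secretogranins) are acidic, calcium-binding proteins that aggregate in the trans-Golgi network and help the granule to form. Inside the granule, prohormone convertases cut precursors after pairs of basic residues, carboxypeptidase E trims the exposed basic residues, and peptidylglycine alpha-amidating monooxygenase amidates the C terminus that many hypothalamic peptides need for activity. Since orexin, melanin-concentrating hormone, oxytocin, vasopressin and the melanocortins all pass through this route, the hypothalamus is rich in granule proteins.

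Between 53.8% and 56.4% of probes per array were above background, and having 4 arrays per genotype sets the precision. The probe of Bgn itself read 8.94, 9.01, 8.99 and 8.79 on the Bgn_KO arrays and 8.86, 10.44, 10.14 and 9.53 on the WT arrays (normalized log2 signal, replicates 1 to 4). The deposited signal was still 544 to 643 on the Bgn_KO arrays, against 736 to 1443 on the WT arrays. The log2 difference of -0.81 (SE 0.29) did not pass the test described below, with a limma adjusted p of 0.390 and an exact two-sided permutation p of 0.114. Whether the probe lies in the disrupted part of the gene is not known here, so that it is a weak check of the labels. After normalization, WT replicate 1 fell inside the range of the Bgn_KO arrays for this probe, though its deposited signal (736) was above theirs. The granule genes are therefore given with and without this array. The mean of meningeal fibroblast markers, relative to its average over arrays, was -0.65, 0.97, 0.58 and -0.19 on the WT arrays (log2). On the Bgn_KO arrays it was 0.29, -0.63, -0.93 and 0.55. This mean ranked the WT arrays as Bgn did, but not the Bgn_KO arrays. Its part in the Bgn values was not tested. Of 15 genes of hypothalamic identity, 13 had a probe and 8 were above background on at least 4 arrays. These were Nkx2-1, Six3 and the peptide precursor genes Hcrt, Pmch, Oxt, Avp, Trh and Pomc, while Sim1, Otp, Rax, Six6 and Nr5a1 were not. Markers of other tissues stood high on single arrays of both genotypes. The mean of cortical markers stood 1.80 above its average over arrays on Bgn_KO replicate 4, and that of muscle markers stood 4.41 above on WT replicate 4 (log2).

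Transcription of several granule genes in neuroendocrine cells is known to be driven by CREB, the cyclic AMP response factor, through a palindromic site close to the transcription start. The site was looked for in the RefSeq promoters of the set (GRCm38.p6, 250 bases before to 50 after the start, both strands), since CREB-linked genes are compared with the granule genes further on. The letters TGACGTCA occurred in the promoters of 3 of the 8 genes with a promoter entry (Chgb, Scg2 and Pcsk1), and in 1.79% of 32851 promoters of the same length. Chga carried the related TGACGTAA, found in 0.499% of them. The genes of the set are counted by symbol and these shares by promoter entry. Vgf and Cpe had no promoter entry, so that they were not searched. The stretches below run 5′ to 3′ on the strand of the gene, with the motif in capitals, which begins 68 bases before the start in Scg2, 72 in Chgb, 78 in Pcsk1 and 44 in Chga. They lie, in that order, at chr1:79440067-79440114 (minus strand), chr2:132781550-132781597 (plus), chr13:75089759-75089806 (plus) and chr12:102554877-102554924 (plus).
Scg2: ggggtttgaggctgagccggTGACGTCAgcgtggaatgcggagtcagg
Chgb: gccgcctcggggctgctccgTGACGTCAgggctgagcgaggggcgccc
Pcsk1: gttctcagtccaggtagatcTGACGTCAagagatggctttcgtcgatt
Chga: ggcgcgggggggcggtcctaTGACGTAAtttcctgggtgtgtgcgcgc
A match of letters is a description and does not show that a factor binds there.

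The comparison of Bgn_KO with WT asks whether the Bgn_KO genotype goes with another level of the granule machinery. None of the tested granule or processing genes passed the test, and for most of them the arrays bound the difference to less than 1.5-fold in either direction. Of the 10 probes, 9 were above background on at least 4 of the 8 arrays and were tested. Passing means an adjusted p below 0.05 in limma's moderated test, corrected over all 14190 probes tested. Of these 9 probes, 0 passed, against 72 of all tested probes, or 0.507% (0.226% higher and 0.282% lower in Bgn_KO). An unadjusted p under 0.05 was reached by 0 of the 9 and by 10.2% of all tested probes. The arrays of the groups did not overlap for 0 of the 9 probes, against 6.15% of all tested probes. Of the 9 probes 3 were higher and 6 lower in Bgn_KO (log2 differences from -0.20 to 0.25, median -0.04), while over all tested probes 47.2% were lower and the median was 0.01. The median absolute log2 difference was 0.10 over the 9 probes and 0.11 over all tested probes.

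**Figure D1:**
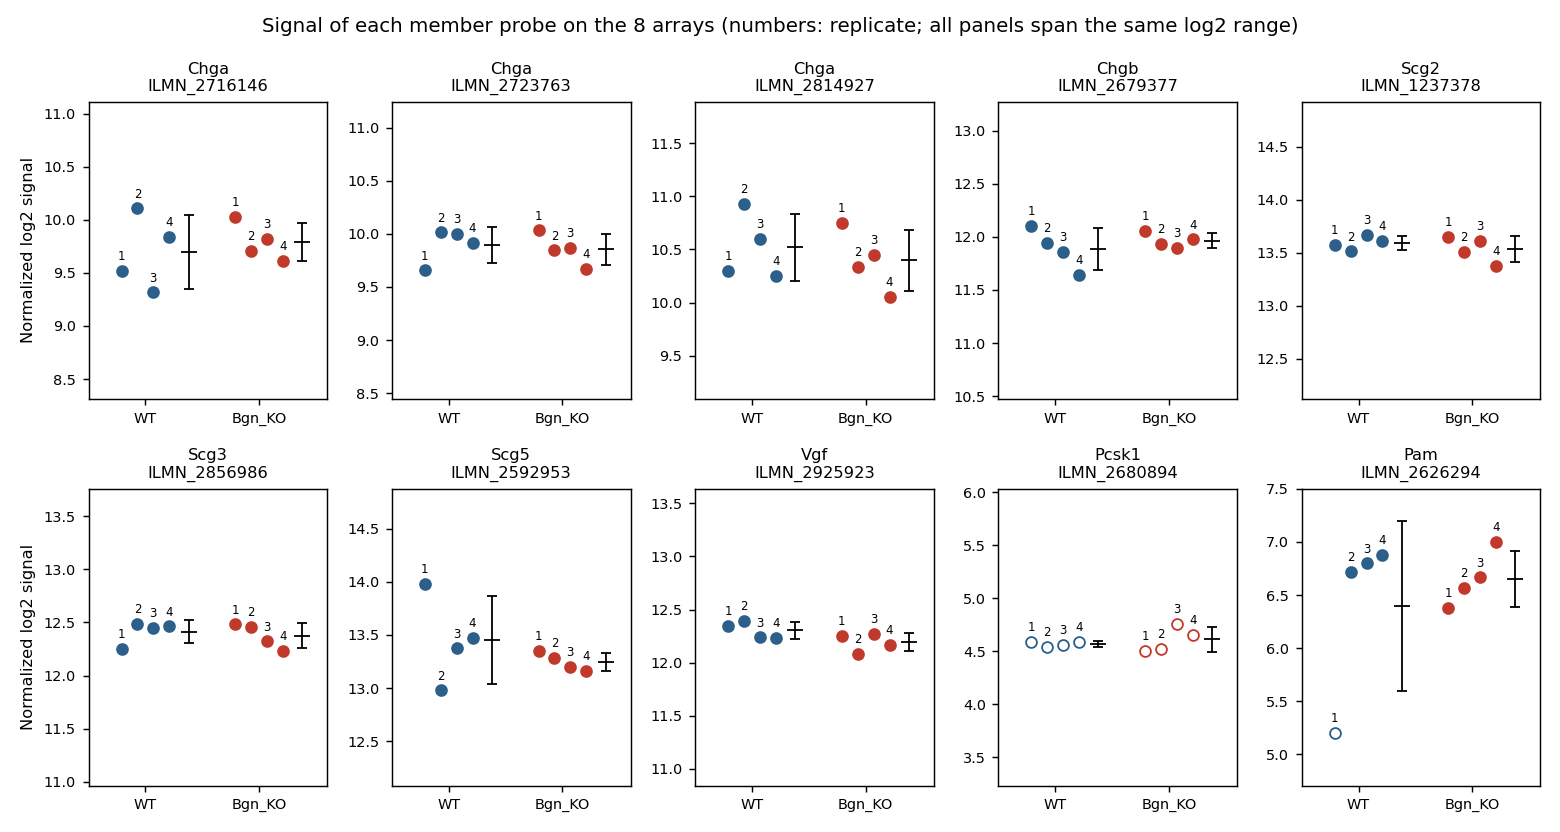
Normalized log2 signal (y axis) of each probe of the set on the 4 WT and 4 Bgn_KO arrays, with the replicate number over each point and the mean and SD of the group beside it. Open points were not above background. The groups overlap in every panel, Scg5 stands high and Pam low on WT replicate 1, and Pcsk1 was not above background on any array.

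Among the granins, secretogranin II (Scg2), is the precursor of the peptide secretoneurin. Its deposited signal was 12688, 10091, 10889 and 11465 on the Bgn_KO arrays and 14233, 11423, 14391 and 13181 on the WT arrays, before scaling between arrays. After normalization these became 13.65, 13.51, 13.61 and 13.38 in Bgn_KO and 13.58, 13.51, 13.67 and 13.61 in WT on the log2 scale. The higher deposited signals of the WT arrays were thus largely levelled by the normalization, and the groups overlapped. The log2 difference, Bgn_KO minus WT, was -0.05 (SE 0.09, limma adjusted p = 0.884), with a 95% interval from 0.836-fold to 1.11-fold, and -0.06 without WT replicate 1 (limma adjusted p = 0.858). Chromogranin B (Chgb), a granin of the granule matrix, read 12.06, 11.93, 11.90 and 11.98 on the Bgn_KO arrays and 12.11, 11.94, 11.86 and 11.64 on the WT arrays. WT replicate 4 was the lowest array and WT replicate 1 the highest, so that the WT values enclosed all those of Bgn_KO. The log2 difference was 0.08 (SE 0.11, limma adjusted p = 0.857, interval 0.890-fold to 1.25-fold). Leaving out WT replicate 1 gave 0.15 (limma adjusted p = 0.607).

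Secretogranin III (Scg3), which tethers chromogranin A to the cholesterol-rich granule membrane, read 12.48, 12.46, 12.32 and 12.24 in Bgn_KO and 12.25, 12.49, 12.45 and 12.46 in WT. Replicate 4 of Bgn_KO and replicate 1 of WT were lowest, Bgn_KO replicate 3 came next, and the other 5 arrays lay close together, so that the groups overlapped. The log2 difference was -0.04 (SE 0.10, limma adjusted p = 0.932, interval 0.839-fold to 1.13-fold). Without the array labelled WT replicate 1 the remaining WT arrays were 12.47 ± 0.02 (SD, n = 3) and the difference was -0.09 (limma adjusted p = 0.746).

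Vgf, an activity-regulated granin-like protein that is cut into peptides with effects on energy balance, read 12.25, 12.08, 12.27 and 12.17 on the Bgn_KO arrays. On the WT arrays it read 12.34, 12.39, 12.24 and 12.23. Only WT replicates 1 and 2 lay above every Bgn_KO array, and the means were 12.19 ± 0.08 against 12.30 ± 0.08 (SD, n = 4 each). Its log2 difference of -0.11 (SE 0.09, interval 0.811-fold to 1.06-fold) had the smallest limma adjusted p of the set, 0.711, with a two-sided exact permutation p of 0.171, where 4 against 4 arrays can give no p below 0.0286. Leaving out WT replicate 1 gave -0.10 for Vgf (limma adjusted p = 0.726).

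Chromogranin A (Chga), the granin precursor of vasostatin and catestatin, was read by 3 probes, each above background on all 8 arrays. The brightest, ILMN_2814927, read 10.75, 10.34, 10.45 and 10.05 on the Bgn_KO arrays and 10.30, 10.93, 10.60 and 10.25 on the WT arrays. Bgn_KO replicate 1 and WT replicate 2 stood highest in their groups, and the groups overlapped. Its log2 difference was -0.12 (SE 0.19, limma adjusted p = 0.875, interval 0.687-fold to 1.23-fold). The second probe, ILMN_2723763, read 10.03, 9.84, 9.87 and 9.67 in Bgn_KO and 9.66, 10.01, 9.998 and 9.91 in WT (difference -0.04, SE 0.11, limma adjusted p = 0.940). The third, ILMN_2716146, read 10.03, 9.71, 9.82 and 9.61 in Bgn_KO and 9.52, 10.11, 9.32 and 9.84 in WT (difference 0.10, SE 0.17, limma adjusted p = 0.892). The probes thus did not share a sign between the genotypes. Without WT replicate 1 the log2 differences were 0.04 for ILMN_2716146, -0.12 for ILMN_2723763 and -0.20 for ILMN_2814927 (limma adjusted p from 0.699 to 0.962). They also parted on single arrays: on WT replicate 3 ILMN_2716146 lay 0.43 below its own 8-array mean, while the others lay 0.12 and 0.14 above theirs.

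All 3 Chga probes were highest, within each genotype, on Bgn_KO replicate 1 and on WT replicate 2. These were also the arrays with the highest signal for the pituitary hormone genes Cga and Tshb. Cga, the hormone subunit shared by thyrotropin and the gonadotropins, read 8.59 on Bgn_KO replicate 1 and 9.02 on WT replicate 2, and between 4.56 and 6.04 on the other 6 arrays. Tshb, the thyrotropin beta subunit, read 8.46 and 7.61 on these arrays and at most 5.62 elsewhere. Each was above background on 4 of the 8 arrays, namely replicates 1 and 4 of Bgn_KO and replicates 2 and 3 of WT. Of the other pituitary genes examined, Fshb and Lhb were above background on 0 arrays, Gh, Prl and Pitx1 on 1 each, and Pomc, which hypothalamic neurons also make, on 8. Gh, Prl and Pitx1 were not above background on Bgn_KO replicate 1 or WT replicate 2. Which cells gave the Cga and Tshb signal was not tested. On Bgn_KO replicate 4, which had Gh at 7.21 and Prl at 7.10, the brightest Chga probe was at its lowest. Without Bgn_KO replicate 1 and WT replicate 2, left out after these values were seen, the 3 probes had log2 differences of 0.16, -0.06 and -0.10 (ILMN_2716146, ILMN_2723763 and ILMN_2814927, limma adjusted p from 0.781 to 0.912). On WT replicate 2, Scg3 (12.49) and Vgf (12.39) were highest among the WT arrays, while Scg2 (13.51) and Scg5 (12.98) were lowest. Chgb read 11.94 there, against 12.11 on WT replicate 1. On Bgn_KO replicate 1, Chgb, Scg2, Scg3 and Scg5 were highest among the Bgn_KO arrays, while Vgf was not and Pam was lowest. The part of pituitary RNA in the Chga values was not tested.

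**Figure D2:**
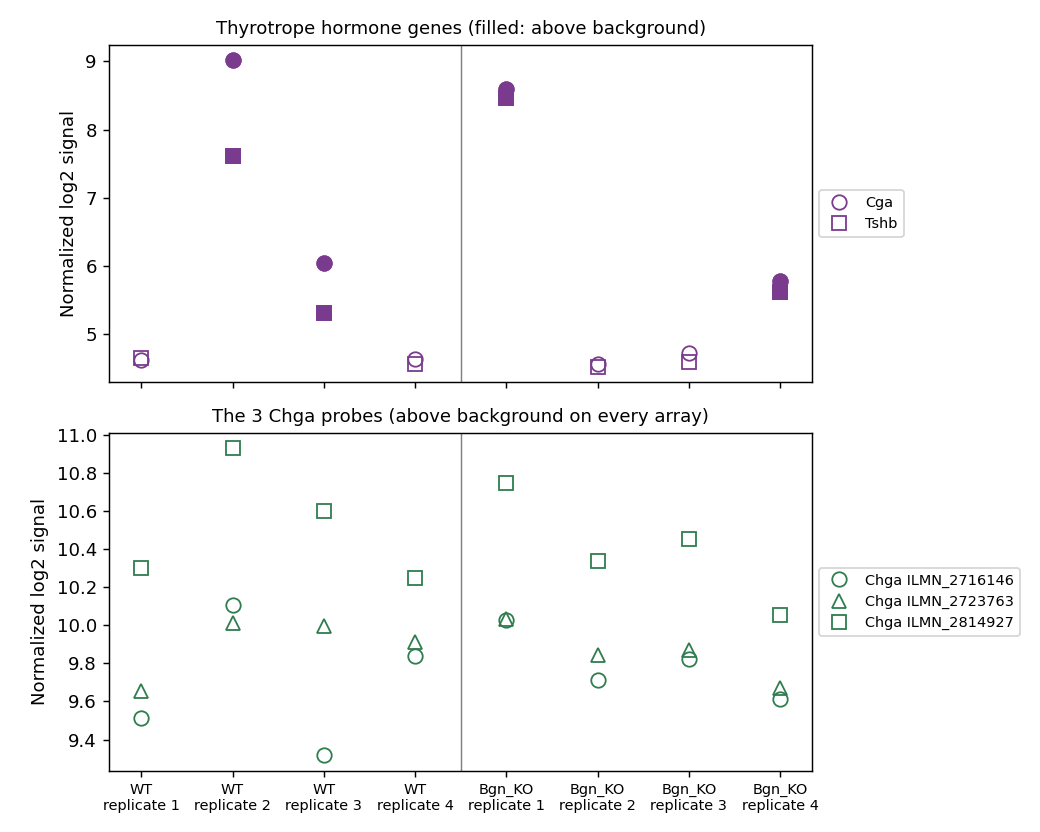
Normalized log2 signal (y axes) on each of the 4 WT and 4 Bgn_KO arrays (x axis) of the thyrotropin subunit genes Cga and Tshb (upper panel, filled where above background) and of the 3 Chga probes (lower panel). Bgn_KO replicate 1 and WT replicate 2 stand highest for Cga and Tshb, and each Chga probe is at its highest within the genotype there.

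Scg5 encodes 7B2, the chaperone that carries inactive prohormone convertase 2 to the granule and inhibits it until arrival. Its deposited signal was 10479, 8690, 8058 and 10082 on the Bgn_KO arrays and 18270, 7922, 11836 and 12119 on the WT arrays. On the normalized log2 scale the Bgn_KO arrays read 13.35, 13.29, 13.20 and 13.16, and the WT arrays 13.98, 12.98, 13.37 and 13.47. The WT arrays alone held the highest and the lowest of all 8 values, WT replicates 1 and 2, with an SD of 0.41 against 0.08 in Bgn_KO (n = 4 each). The log2 difference of -0.20 (SE 0.18, limma adjusted p = 0.762) was the lowest in the set, with an interval from 0.651-fold to 1.16-fold. The size rested on these arrays: it was -0.02 without WT replicate 1 (SE 0.13, limma adjusted p = 0.964), -0.36 without WT replicate 2 (limma adjusted p = 0.436) and -0.39 without Bgn_KO replicate 1 and WT replicate 2 (limma adjusted p = 0.527). WT replicate 1 also had the highest mean of the hypothalamic identity genes (0.22 above the average over arrays) and of the CREB and activity-linked genes (0.31 above). On WT replicate 2, where Scg5 was lowest, these means were 0.07 and 0.05. The CREB and activity-linked mean was lowest on WT replicate 3 (-0.69), where Scg5 stood 0.02 above its own mean. On the Bgn_KO arrays it was 0.09 to 0.19, with Scg5 below its own mean on each. The part of these genes in the Scg5 values was not tested.

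Of the processing enzymes, prohormone convertase 1 (Pcsk1), which makes the first cuts in proopiomelanocortin and other precursors, was above background on 0 of the 8 arrays. Its deposited signals lay between 143 and 175, with detection p-values between 0.293 and 0.815, and no fold is given. Its level could thus not be compared between the groups with this probe. Pam, the amidating enzyme, was dim. Its deposited signal was 229.6, 215.1, 220.9 and 295.7 on the Bgn_KO arrays and 203.9, 243.8, 277.9 and 272.2 on the WT arrays. On the normalized log2 scale it read 6.38, 6.56, 6.67 and 7.003 in Bgn_KO and 5.20, 6.72, 6.80 and 6.88 in WT. The array labelled WT replicate 1 stood apart, the only one on which Pam was not above background (detection p 0.0539), although this array had the highest median signal of all probes (225.0). The log2 difference was 0.25 (SE 0.35, limma adjusted p = 0.857, interval 0.692-fold to 2.05-fold), so that a doubling was within the interval. Without that array the sign turned, with a difference of -0.15 (SE 0.15, limma adjusted p = 0.743) against the other WT arrays at 6.80 ± 0.08 (SD, n = 3).

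**Figure D3:**
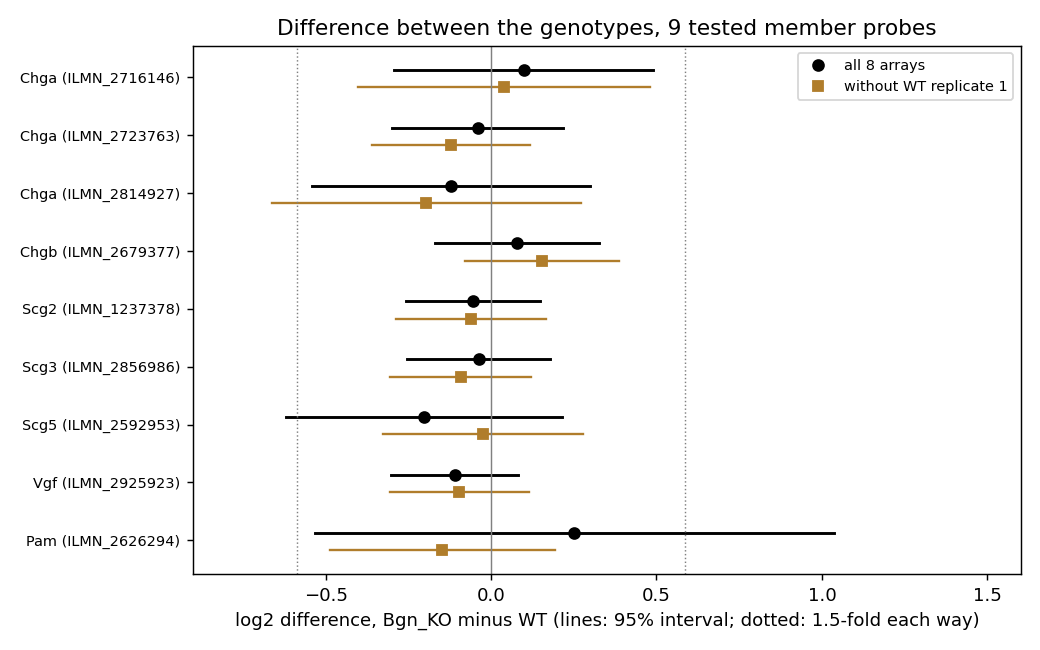
Log2 difference, Bgn_KO minus WT (x axis), with its 95% interval for the 9 tested probes (y axis), over all 8 arrays (circles) and without the array labelled WT replicate 1 (squares). All intervals hold 0, and only those of Scg5 and Pam over all 8 arrays, and that of Chga ILMN_2814927 without that array, cross the dotted lines at 1.5-fold.

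The intervals therefore differ in what they allow. For 7 of the 9 probes the 95% interval lay inside 1.5-fold in either direction, as it did for 75.3% of all tested probes, and the exceptions were Scg5 and Pam. The standard errors ran from 0.09 for Vgf to 0.35 for Pam, against a median of 0.13 over all tested probes. The two-sided exact permutation p was 0.171 or more for each of the 9 probes.

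The level of the set as a whole varied little from array to array. Taking the brightest probe of each of the 7 tested genes, centred on its mean over arrays, their mean ran from -0.10 on WT replicate 1 to 0.07 on WT replicate 3 (log2). The means of the Bgn_KO arrays lay at 0.06, -0.04, -0.01 and -0.07. The low mean of WT replicate 1 rested on Pam, at -1.32 and not above background there. On that array 4 of the 7 genes were above their own mean, and the median was 0.01. The lowest median was -0.16, on Bgn_KO replicate 4. Of the 7 genes, 3 were highest on WT replicate 2 (Chga, Scg3 and Vgf), 2 on WT replicate 1 (Chgb and Scg5), and 1 each on WT replicate 3 (Scg2) and Bgn_KO replicate 4 (Pam). On Bgn_KO replicate 4, the array with the highest cortical and the lowest hypothalamic identity marker mean (1.80 and -0.42), 3 genes were lowest (Chga, Scg2 and Scg3). The neuron markers, of which 11 of 14 were tested, differed in mean by array between -0.11 and 0.15, with 7 higher and 4 lower in Bgn_KO and 0 past the test. Most oligodendrocyte markers were lower in Bgn_KO (9 of 10, 0 past the test), with array means from -0.32 to -0.08 in Bgn_KO and from -0.05 to 0.31 in WT. Of the microglia markers 8 of 9 were lower (0 past the test), with array means from -0.28 to 0.11 in Bgn_KO and from 0.04 to 0.18 in WT. Of the astrocyte markers 6 of 9 were lower (0 past the test), with array means from -0.08 to -0.04 in Bgn_KO and from 0.02 to 0.07 in WT. The part of these cell types in the granule values was not tested.

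Among 9775 other named genes, those whose 8-array profile was most like the mean of the 7 granule genes were Txnrd3, Chst5, Trmt10a, Resp18 and BC052040 (Pearson r of 0.98, 0.96, 0.94, 0.93 and 0.93). They were picked for this likeness, so that no p is given. The mean profile leans on the low Pam value of WT replicate 1, and without the arrays farthest from its median, Bgn_KO replicate 4 and WT replicate 1, the r values were 0.94, 0.89, 0.96, 0.89 and 0.87 over 6 arrays. Resp18 encodes a luminal protein of dense-core granules in endocrine cells. Its log2 difference between the genotypes was -0.03 (SE 0.10, limma adjusted p = 0.950).

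The rest of the pathway was described by lists of related genes, each gene by its brightest tested probe. Over all named genes tested this gave 9782 genes, of which 49 (0.501%) passed and 603 (6.16%) had groups that did not overlap. Across the lists below 0 genes passed. Of 24 other enzymes and inhibitors of peptide processing, 16 were tested, 8 higher and 8 lower in Bgn_KO, with a median log2 difference of 0.01. Pcsk1n encodes proSAAS, a granin-like inhibitor of prohormone convertase 1. It read 12.69, 12.50, 12.70 and 12.60 on the Bgn_KO arrays and 12.95, 12.79, 12.79 and 12.87 on the WT arrays. Every Bgn_KO array was below every WT array, yet the log2 difference of -0.23 (SE 0.09) did not pass (limma adjusted p = 0.407). The lysosomal and granule protease cathepsin L (Ctsl) read 6.14, 6.26, 5.89 and 5.82 against 5.06, 5.75, 5.17 and 5.04 (fitted difference 0.77, SE 0.17, limma adjusted p = 0.132). It was not above background on WT replicates 1, 3 and 4, so that neither the size nor the lack of overlap is a measured difference between expressed levels. Without WT replicate 2, the only WT array above background, the fit gave 0.94 (limma adjusted p = 0.0240), a call against arrays at background, and without background correction it gave 0.20. The convertase Pcsk7 and the glutaminyl cyclase Qpct, which forms N-terminal pyroglutamate, had differences of 0.16 and 0.15 (limma adjusted p = 0.645 and 0.761), and Pcsk7 had 0.09 without WT replicate 1.

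Of 27 genes for granule formation, cargo and release, 19 were tested, 9 higher and 10 lower, with a median of -0.0045. Synaptotagmin 4 (Syt4), a granule-associated synaptotagmin whose transcription follows neuronal activity, read 13.17, 12.57, 13.13 and 13.27 on the Bgn_KO arrays and 12.17, 12.56, 12.52 and 12.51 on the WT arrays. The lowest Bgn_KO array, replicate 2, was only just above the highest WT array, and the other Bgn_KO arrays stood clear of them. The difference of 0.59 (SE 0.16) did not pass (limma adjusted p = 0.225). Atp7a, the copper transporter that supplies Pam with its metal, read 5.03, 5.93, 5.47 and 4.88 in Bgn_KO against 6.49, 6.05, 6.22 and 6.495. It was not above background on Bgn_KO replicates 1 and 4, so that the fitted difference of -0.99 (SE 0.22, limma adjusted p = 0.132) rests in part on values at background. The same holds for the call without Bgn_KO replicate 2 (-1.19, limma adjusted p = 0.0388), and the difference was -0.28 without background correction. The granule membrane phosphatase Ptprn2 and the Rab effector Sytl4 differed by 0.31 and -0.38 (limma adjusted p = 0.514 and 0.517), and Sytl4 had -0.24 without WT replicate 1. Cadps, which primes granules for release, had a difference of -0.0045 (limma adjusted p = 0.992), and Furin, a convertase of the constitutive route, one of -0.03 (limma adjusted p = 0.947). Both were named after their values were seen.

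Of 41 precursors that are cargo of these granules, 28 were tested, 8 higher and 20 lower in Bgn_KO, with a median log2 difference of -0.07 against 0.01 over all tested probes. Over all tested probes 47.2% were lower. Leaving out Bgn_KO replicate 1 or WT replicate 2 gave a list median of -0.14 or -0.10, and leaving out Bgn_KO replicate 4 or WT replicate 3 gave -0.02 or -0.01. The groups did not overlap for 4 of the 28, against 6.16% of all named genes tested. The enzyme and inhibitor list and the granule formation list each had 2 such genes, of 16 and 19 tested. The 4 precursors were Npb (-0.73), Grp (-0.59), Hcrt (-0.45) and the growth hormone-releasing hormone gene Ghrh (-0.37). All were lower, with limma adjusted p between 0.107 and 0.371. Without background correction Npb was at -0.39 and Grp at -0.39, and on the authors' processed values at -0.38 and -0.38. The list's mean by array was lowest on Bgn_KO replicate 4 (-0.17), the array with the highest cortical marker mean and with the lowest mean of the hypothalamic identity genes (-0.42), of which 6 of 8 are themselves in the precursor list. Their part in the list was not tested.

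The CREB and activity-linked genes were compared because several granule genes carry the CREB motif. Of 13 such genes 10 were tested, 7 higher and 3 lower, with a median of 0.16 against 0.01 over all tested probes. The groups did not overlap for 2 of the 10, Egr1 and Junb, against 6.16% of all named genes tested. For Junb the lowest Bgn_KO array was at 8.58 and the highest WT array at 8.53. Egr1 read 12.78, 12.59, 12.60 and 12.96 in Bgn_KO and 12.48, 11.89, 11.38 and 11.90 in WT, without overlap (difference 0.82, SE 0.21, limma adjusted p = 0.178). Fos read 10.64, 10.33, 10.29 and 10.10 in Bgn_KO, and 10.29, 9.62, 7.98 and 9.59 in WT (difference 0.97, SE 0.41, limma adjusted p = 0.478). WT replicate 3 was the lowest array for both, and Junb had a difference of 0.64 (limma adjusted p = 0.450) and Npas4 one of 0.21 (limma adjusted p = 0.742). Single arrays moved these values. Without WT replicate 3 the median of the list was 0.0061, with Egr1 at 0.64, Fos at 0.50, Junb at 0.38 and Npas4 at 0.07. Without WT replicate 1 the median was 0.26, with Egr1 at 1.01 (limma adjusted p = 0.0569), Fos at 1.27, Junb at 0.80 and Npas4 at 0.31. The median was also 0.26 without WT replicate 2.

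**Figure D4:**
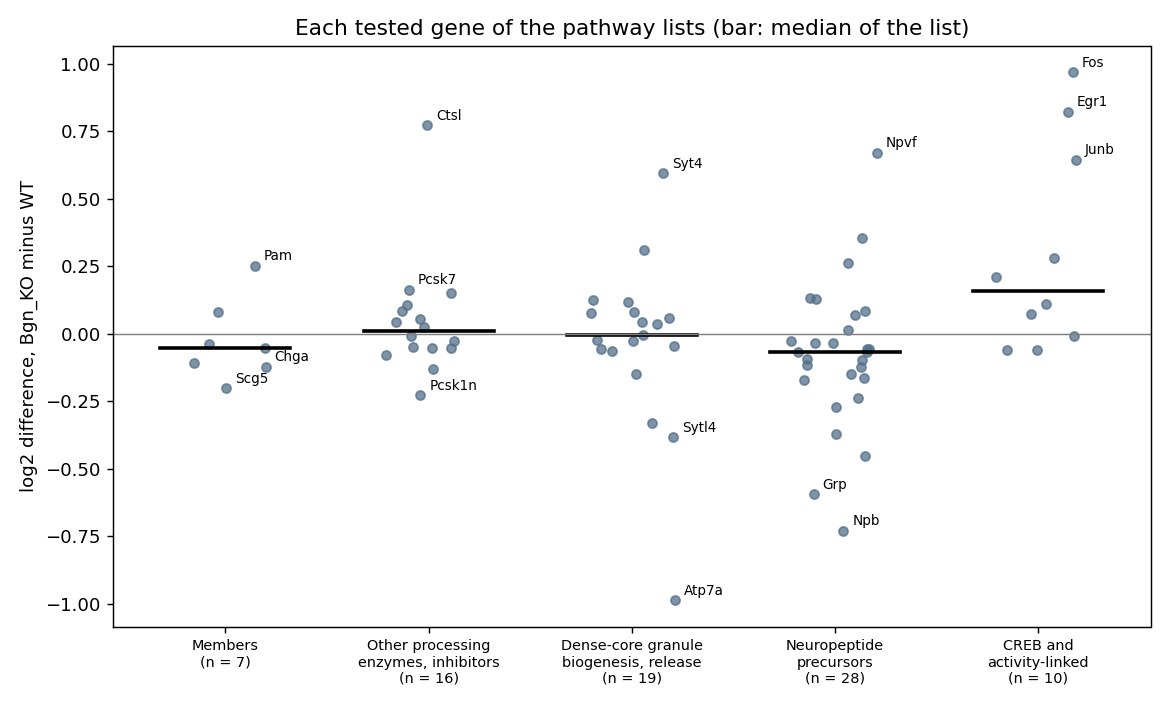
Log2 difference, Bgn_KO minus WT (y axis), of each tested gene of the granule set and of the related lists (x axis), with the median of each list as a bar and the genes farthest from 0 named. The granule set spans -0.20 to 0.25, and 0 genes in the plot passed the test.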

How the data were processed

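For each probe and array the authors deposited a signal intensity without normalization, per the file headers, together with a detection p-value. A second deposited table of processed intensities was used as an alternative only. The submitters' processing notes list lumi 2.10.0 and R 2.15.0. The normalization of that second table is not given in the sources.

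Each table column was matched to its sample through the sample descriptions. The deposited intensities were background-corrected by normexp, with the background taken from detection p-values and an offset of 16, then quantile normalized across arrays and log2 transformed (limma 3.58.1, R 4.3.3). A probe was tested if detected (p under 0.05) on 4 or more of 8 arrays, which kept 14190. Genotype was the only model term, and p-values were adjusted by Benjamini-Hochberg over every tested probe. Exact permutation tests used all 70 splits. The platform table gave 1 symbol for 23978 probes and did not list 1719, and symbols were updated by Entrez ID through RefSeq (GRCm38.p6). The steps were tested on simulated data. Alternatives covered background, scaling, filter, array weights, replicate block, the authors' processed values and left-out arrays.

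All members and their probes are named, with up to 4 genes of each other pathway list (those past 0.05 first, then the smallest p) and 5 for likeness. Members and lists were chosen with earlier results of these data known. Samples are labelled as separate, but nothing states whether mice shared litters, so p-values measure the spread between these samples. Same-numbered arrays deviated from their group means with correlations of -0.01, -0.19, 0.01 and 0.10, and the numbers were not taken as pairs.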

Additional observations from a re-analysis of the deposited data

Results flagged for a closer look

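The Pam value of the array labelled WT replicate 1, 5.20 on the normalized log2 scale, stood apart from the other WT arrays, which lay between 6.72 and 6.88. The gap made up 0.905 of the range of the group, above Dixon's 95% critical value for 4 arrays. It was the only such value among 20 groups examined (the 9 tested granule probes and Bgn, in each genotype), and chance gives about 1 in 20. The probe was not above background on that array, which is also the one whose normalized Bgn signal fell inside the range of the Bgn_KO arrays. The cause was not tested.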

How the results depend on the processing

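Under all 19 alternatives, 0 probes of the granule set passed 0.05, and the smallest limma adjusted p was 0.436 (Scg5). Of 162 recomputed differences 152 kept their sign, and the 10 that did not came from leaving out arrays. With arrays left out, Chga ILMN_2716146 ran from -0.026 (without WT replicate 3) to 0.237 (without WT replicate 2). Chga ILMN_2814927 ran from -0.239 (without Bgn_KO replicate 1) to 0.015 (without WT replicate 2). Chga ILMN_2723763 turned to 0.020 without Bgn_KO replicate 4 and 0.027 without both replicates 4. Its lowest value with arrays left out was -0.121, without WT replicate 1, and median scaling gave -0.124. Chgb ran from -0.0068 (without both replicates 4; -0.0032 without WT replicate 4) to 0.153 (without WT replicate 1). Scg2 turned to 0.0035 without both replicates 4 and was lowest, -0.119, without Bgn_KO replicate 1 and WT replicate 2. Scg3 turned to 0.0090 without Bgn_KO replicate 4 and 0.026 without both replicates 4, and was -0.091 without WT replicate 1. Scg5 kept its sign, from -0.393 (without Bgn_KO replicate 1 and WT replicate 2) to -0.025 (without WT replicate 1). Pam ran from -0.147 (without WT replicate 1) to 0.450 (without Bgn_KO replicate 1 and WT replicate 2). The cause was not tested.

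The related lists held between 0 and 1 called genes when arrays were left out. Over all probes the count past 0.05 was 72, and 26 with a replicate block, 116 with array weights, 47 among probes detected at 0.01 on all arrays, 42 without both replicates 4, and 44 and 43 without WT replicate 3 or 4. With the replicate block 0 granule probes passed. The CREB and activity-linked median moved between 0.0061 (without WT replicate 3) and 0.323 (without Bgn_KO replicate 1 and WT replicate 2), and was 0.063 without background correction. The precursor median moved between -0.163 (without Bgn_KO replicate 1 and WT replicate 2) and -0.013 (without WT replicate 3). Median scaling gave a median of -0.052 over all probes and -0.115 over the granule genes. The low signals of Pam and Pcsk1 over background limit what can be said of the enzymes.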
